A study of Mus musculus with 79 samples.

Results

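The 41 genes described here are interferon-stimulated genes, nucleic acid sensors with the adaptor Myd88, and the complement genes C3 and C4b, picked by symbol from a table of 55335 genes. All 41 symbols matched 1 gene each in the GENCODE vM21 annotation of GRCm38, and each had counts in at least 7 of 79 libraries. The libraries were made from small sorted pools of nuclei of adult mouse visual cortex, and the study's question was what neuronal activity persisting in darkness does to expression. Mice carried INTACT wt/ki, an allele that labels nuclei wherever Cre is active, and VIP Cre wt/ki, which puts Cre in interneurons that express vasoactive intestinal peptide (VIP). Injected mice received an adeno-associated virus (AAV) in the visual cortex at postnatal day 55 to 60, either AAV-Syn1-Kir2.1-2a-mScarlet-KASH or the same vector with Kir2.1(Mutant) in place of Kir2.1, and entered the dark 3 days later for 10 to 12 days. Every library, those without AAV included, was labelled as 10 days dark housed, although the protocol text also speaks of a return to light. Kir2.1 is an inwardly rectifying potassium channel that lowers excitability, the mutant is its control, and the Syn1 promoter directs both to neurons.

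Kir2.1 is represented by 10 transduced VIP libraries, 10 non-transduced VIP libraries, 8 libraries from transduced neurons and 10 from all non-transduced nuclei. The mutant is represented by 9, 9, 8 and 9 libraries of the same kinds. From uninjected mice came 3 VIP libraries and 3 that took every nucleus. All 6 libraries without AAV came from males, whereas each group with AAV held both sexes, so that sex and AAV cannot be told apart in full. Mice without AAV were not injected, so the virus and the injection itself cannot be told apart. AAV in the comparisons below stands for both. Non-transduced nuclei of injected mice came from tissue that had received virus but were sorted as not infected.

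Cells detect foreign nucleic acid with cytosolic sensors such as RIG-I (Ddx58) and MDA5 (Ifih1) and with endosomal Toll-like receptors, which switch on interferon genes through the transcription factors IRF3 and IRF7. Secreted type I interferon then acts on neighbouring cells through a receptor that activates a complex holding STAT2 and IRF9, and this complex binds the interferon-stimulated response element in the promoters of antiviral genes. In the brain, microglia, astrocytes and vascular cells are known for strong responses of this kind, and interferon also raises antigen presentation and the complement component C4.

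Promoters were searched for that element because it is the sequence feature that interferon-stimulated genes are known to share. RefSeq promoters of GRCm38.p6, running from 250 bases before to 50 bases after the gene start, matched 32 of the 41 genes. The core of the element, GAAA followed by any 2 bases and again GAAA, read on both strands and with overlapping matches allowed, stood in 13 of these 32 promoters (40.6%), against 3.99% of 27025 genes. They were the promoters of Bst2, Ddx58, Eif2ak2, Gbp2, Gbp3, Gbp7, Ifih1, Ifit1, Ifit3, Isg15, Myd88, Stat2 and Trim30a. The gamma-activated site TTCNNNGAA, a further interferon-response motif, stood in 9 of 32 (28.1%), against 9.55% of genes. No promoter entry was matched for C4b, Ifi27, Nlrc5, Oas2, Parp14, Parp9, Rtp4, Usp18 and Zbp1. The promoters of 4 genes are printed on the gene's strand, with matches to the core or its reverse complement in capitals. Isg15 and Ifit1 are classical interferon targets and show several matches, Stat2 is the gene that differed between vectors in transduced neurons, and Epsti1 is a gene that differed with AAV and holds no match in this window.
Isg15, chr4:156200769-156201068, minus strand: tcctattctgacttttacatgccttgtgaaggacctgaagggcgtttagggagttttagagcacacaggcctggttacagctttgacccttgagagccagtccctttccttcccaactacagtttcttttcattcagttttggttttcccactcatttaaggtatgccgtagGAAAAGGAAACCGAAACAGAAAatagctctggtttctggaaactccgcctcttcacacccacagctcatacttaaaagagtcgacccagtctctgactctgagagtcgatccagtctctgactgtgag
Ifit1, chr19:34640639-34640938, plus strand: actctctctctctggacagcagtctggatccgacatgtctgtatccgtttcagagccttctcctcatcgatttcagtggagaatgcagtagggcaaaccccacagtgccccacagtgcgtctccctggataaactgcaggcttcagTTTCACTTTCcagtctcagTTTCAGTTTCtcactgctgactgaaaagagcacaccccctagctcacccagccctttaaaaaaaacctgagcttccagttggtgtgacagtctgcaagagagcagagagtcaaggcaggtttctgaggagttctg
Stat2, chr10:128270248-128270547, plus strand: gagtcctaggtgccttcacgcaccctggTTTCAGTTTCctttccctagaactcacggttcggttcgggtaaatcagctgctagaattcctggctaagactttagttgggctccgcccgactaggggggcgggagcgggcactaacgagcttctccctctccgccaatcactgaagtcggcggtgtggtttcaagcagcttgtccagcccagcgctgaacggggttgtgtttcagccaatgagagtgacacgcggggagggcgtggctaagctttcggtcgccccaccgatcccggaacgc
Epsti1, chr14:77903989-77904288, plus strand: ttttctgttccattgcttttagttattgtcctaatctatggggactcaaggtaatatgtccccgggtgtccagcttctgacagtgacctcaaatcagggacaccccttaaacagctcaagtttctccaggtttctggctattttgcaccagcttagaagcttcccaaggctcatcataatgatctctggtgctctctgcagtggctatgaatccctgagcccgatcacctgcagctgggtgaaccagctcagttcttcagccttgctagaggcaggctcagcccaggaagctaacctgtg
The 3 matches of Isg15 overlap and begin 78 bases before the gene start. The 2 matches of Ifit1 begin 104 bases before it, and the single match of Stat2 begins 222 bases before it. A match describes these letters and does not show that a factor binds there.

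Libraries held 3219899 to 9267246 counts over 16994 to 23757 genes, and no 2 libraries were identical. Kcnj2, which encodes Kir2.1, averaged 588 CPM (counts scaled to library size) in VIP nuclei transduced with Kir2.1 and 766 CPM in those transduced with the mutant, against 6.98 CPM in VIP nuclei without AAV. The counts of channel and mutant cannot be told apart. Sorting matched the labels: 6 of 8 VIP markers were higher and 8 of 8 excitatory and 8 of 8 oligodendrocyte markers lower in VIP nuclei than in all nuclei, while 14 of 15 microglia markers were lower in transduced neurons than in all non-transduced nuclei. By rank correlation with the other libraries of their group, library 9 of non-transduced VIP nuclei with Kir2.1 (0.854) and library 10 of transduced neurons with Kir2.1 (0.897) stood apart. Which libraries share an animal is not labelled, and a p-value here reflects how libraries of a group vary.

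Levels of the 41 genes were low and led by 3 of them. Irf3, which switches on interferon genes once a sensor has fired, Stat2, the partner of IRF9, and Rnf213, a giant ubiquitin ligase with antimicrobial activity, had the highest mean CPM in each sorted population. In the 41 VIP libraries Irf3 averaged 36.1 ± 16.1 CPM, Stat2 24.6 ± 9.48 CPM and Rnf213 18.4 ± 9.19 CPM (SD). In the 16 libraries of transduced neurons Stat2 averaged 44.7 ± 26.1 CPM, Rnf213 28.3 ± 12.0 CPM and Irf3 19.0 ± 9.88 CPM. In the 22 libraries of all nuclei the averages were 36.1 ± 12.5 CPM for Stat2, 26.2 ± 11.6 CPM for Irf3 and 22.6 ± 16.7 CPM for Rnf213. The spreads of these 3 genes overlapped within each population, so their order is a description. In all nuclei without AAV, Rnf213 was at a pooled 7.10 CPM, below Ifi27 (15.5 CPM), Xaf1 (8.72 CPM) and Irf9 (7.42 CPM). Irf3 overlaps Bcl2l12 and Irf9 overlaps Rnf31, and reads they share may be counted for either gene. Per kilobase of exon, the short gene Ifi27, an interferon-induced membrane protein gene, led in all nuclei with 14.7 CPM per kb and in transduced neurons with 9.38 CPM per kb. Irf3 led in VIP nuclei with 10.5 CPM per kb, ahead of Ifi27 with 4.26 and Stat2 with 4.14 CPM per kb.

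At the low end, Tlr9, the endosomal sensor of unmethylated DNA, had 78 counts in all 79 libraries together, and these came from 7 libraries. Isg15, a ubiquitin-like modifier and a classical interferon target, had 144 counts over 28 libraries, and its highest group mean was 0.522 CPM. Zbp1, a sensor of Z-form nucleic acid, had 158 counts and was at 0 in all 16 libraries of transduced neurons. C3, the central complement component, had 314 counts in 12 libraries. No member had fewer than 10 counts in all. Of the classical antiviral effectors, Ifit1, Ifit2 and Ifit3, which bind foreign RNA, had group means of at most 10.2, 8.22 and 4.14 CPM. The 10 listed interferon genes and the cytokine genes Il1b, Il6 and Tnf were too low to be tested in any comparison. These 13 genes summed to 0 to 6.11 CPM per library, and in all nuclei without AAV, which held the highest sum, the counts came from Il1b and the interferon genes were at 0.

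**Figure D1:**
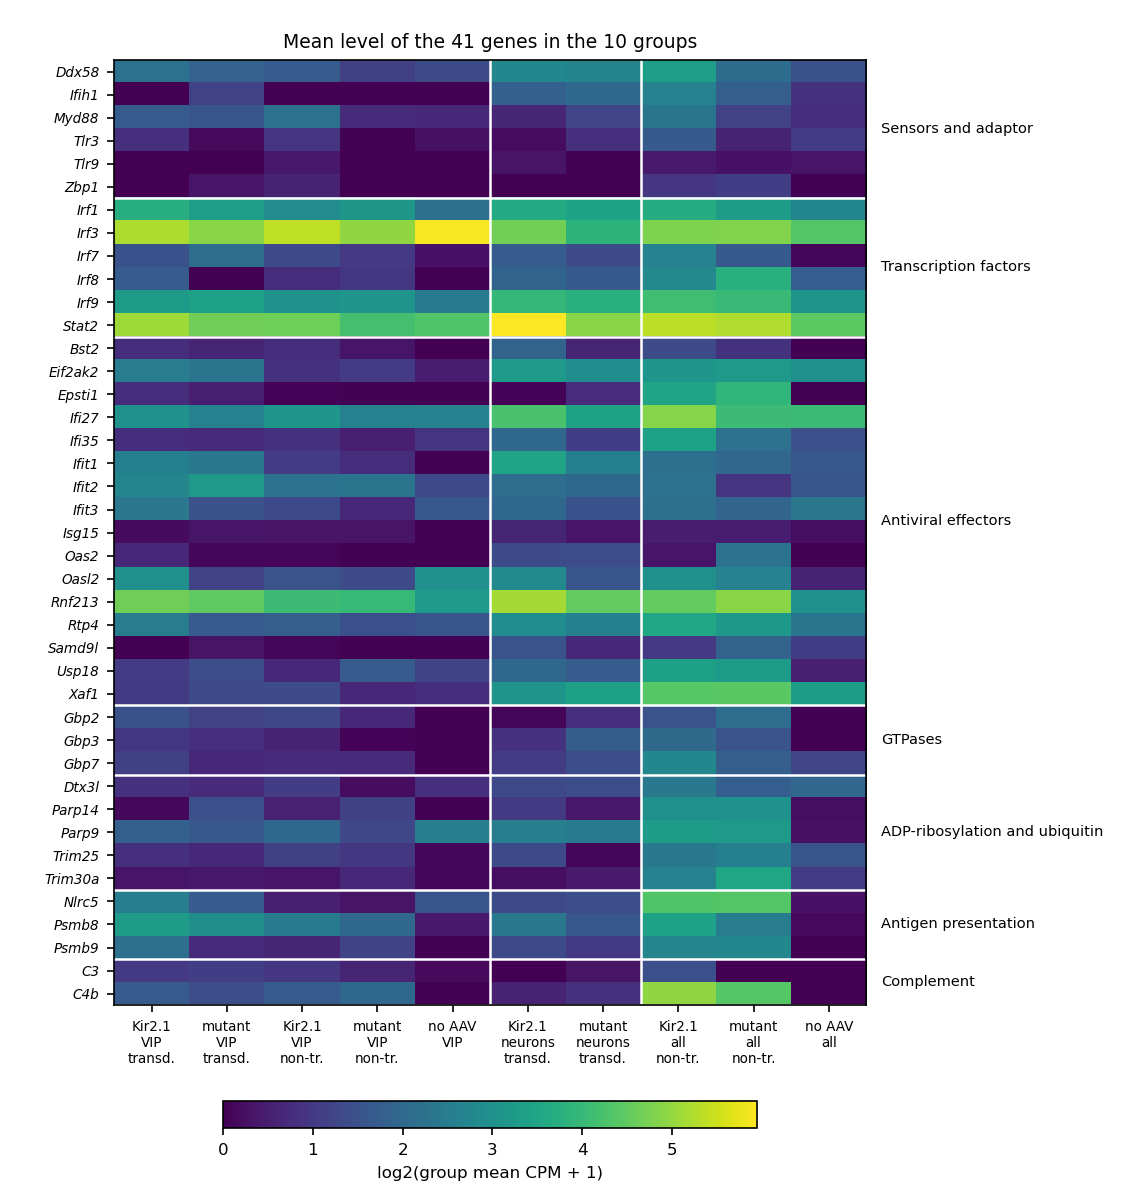
Mean level of each of the 41 genes (rows, ordered by role) in the 10 groups (columns), as log2(CPM + 1). Stat2 and Irf3 are bright in every group, Rnf213 is dimmer in the groups without AAV, and Isg15 and Tlr9 are near 0 in every group. C4b, Epsti1 and Nlrc5 stand out in the columns of all non-transduced nuclei from mice with AAV.

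The summed level of the 41 genes was highest in all non-transduced nuclei from injected mice. It ran from 201 to 653 CPM (median 330) with Kir2.1 and from 248 to 444 CPM (median 280) with the mutant, against 88.1, 133 and 148 CPM without AAV. Every library with AAV lay above every library without it. The number of members with at least 1 count was 26 to 39 in the Kir2.1 libraries and 30 to 38 in the mutant libraries, against 21, 22 and 25 without AAV. In transduced VIP nuclei the sum ran from 96.5 to 415 CPM (median 168) with Kir2.1 and from 112 to 179 CPM (median 166) with the mutant, and in non-transduced VIP nuclei from 56.5 to 209 and from 81.4 to 167 CPM, against 105, 119 and 153 CPM in VIP nuclei without AAV. These VIP groups overlapped. Transduced neurons reached 166 to 468 CPM (median 229) with Kir2.1 and 120 to 233 CPM (median 163) with the mutant, and these groups overlapped too. A sum over chosen members is given as a description without a test.

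**Figure D2:**
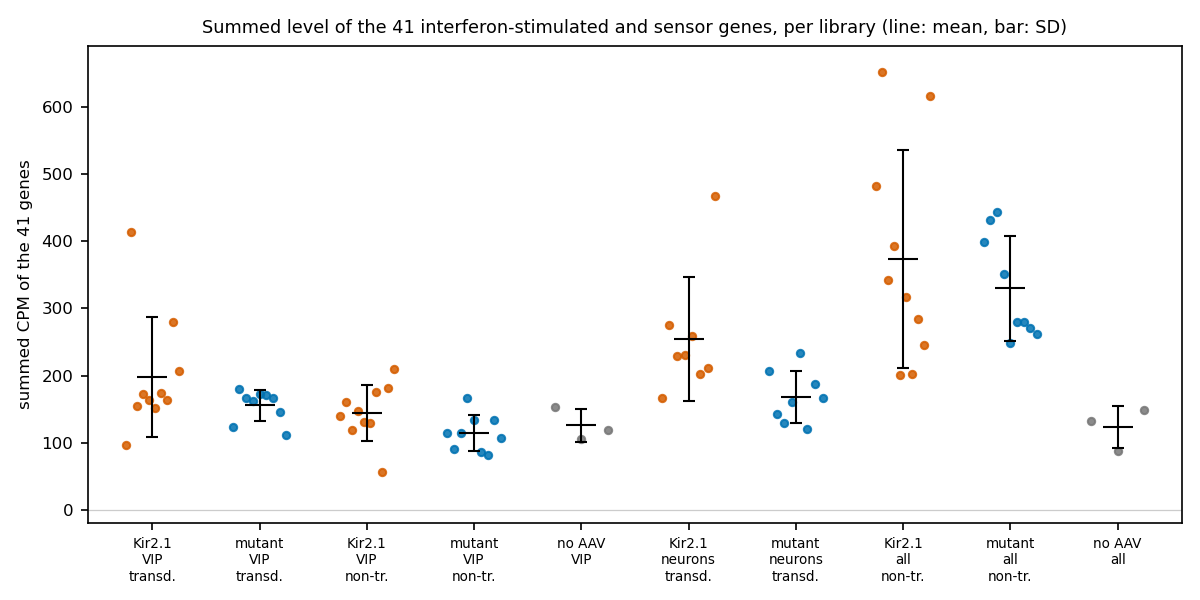
Summed CPM of the 41 genes in each library (points), with the mean (line) and SD (bar) of each of the 10 groups. Of the groups of all non-transduced nuclei, the libraries with Kir2.1 or the mutant lie at 201 CPM or above and the 3 without AAV at 148 CPM or below, while the VIP groups overlap.

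The first comparison set all non-transduced nuclei of injected mice against all nuclei of mice without AAV. There were 4 members that rose: C4b, the complement component that the classical pathway cleaves, Epsti1, an interferon-response gene, Nlrc5, the transactivator of MHC class I genes, and Parp9, which partners the ubiquitin ligase Dtx3l in ADP-ribosylation. No member fell. In bulk libraries of nuclei, more cells of a type that expresses a gene and more RNA per cell cannot be told apart.

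C4b (chr17:34728380-34743882, minus strand) ran from 12.1 to 73.3 CPM (median 26.5) in the 10 libraries with Kir2.1 and from 6.77 to 34.4 CPM (median 23.2) in the 9 with the mutant, against 0 counts in each of the 3 libraries without AAV. The groups did not overlap. Over all libraries there were 3085 counts with AAV and 0 without, at least 153-fold higher against a floor of 3 counts over the group without AAV, and the adjusted p was 4.74e-05 (edgeR). C4a, its near-identical neighbour, did not pass (log2 difference 0.78 ± 1.42, adjusted p = 0.91), although reads of the 2 copies may be split between them.

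Epsti1 (chr14:77904239-78002657, plus strand) ran from 0.878 to 19.1 CPM (median 10.6) with Kir2.1 and from 2.99 to 30.1 CPM (median 10.1) with the mutant, against 0 counts in each library without AAV. Again the groups did not overlap. With 1534 counts against 0 it was at least 75.9-fold higher, with an adjusted p of 9.07e-04.

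Nlrc5 (chr8:94434356-94527272, plus strand) ran from 1.37 to 41.9 CPM (median 17.9) with Kir2.1 and from 6.31 to 42.4 CPM (median 15.2) with the mutant, against 0, 0.161 and 0.520 CPM without AAV. The lowest library with AAV lay above the highest without. Its log2 difference was 6.34 ± 1.10 (SE, adjusted p = 0.00311), and the ratio of pooled counts, 2372 against 4, was 88.0 with an exact 95% counting interval of 34.3 to 323.

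Parp9 (chr16:35938470-35972605, plus strand) ran from 2.81 to 16.3 CPM (median 8.45) with Kir2.1 and from 1.91 to 16.3 CPM (median 6.77) with the mutant, against 0, 0.309 and 0.322 CPM without AAV. These groups were separate as well. Its log2 difference was 5.18 ± 0.95 (adjusted p = 0.00575), and the ratio of counts, 1060 against 4, was 39.3 with an interval of 15.3 to 145. Dtx3l, which overlaps Parp9 on the other strand so that shared reads cannot be assigned, averaged 4.30 CPM with Kir2.1 and 2.43 CPM with the mutant, against 2.90 CPM without AAV, and was not called (0.16 ± 1.36, adjusted p = 0.985).

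**Figure D3:**
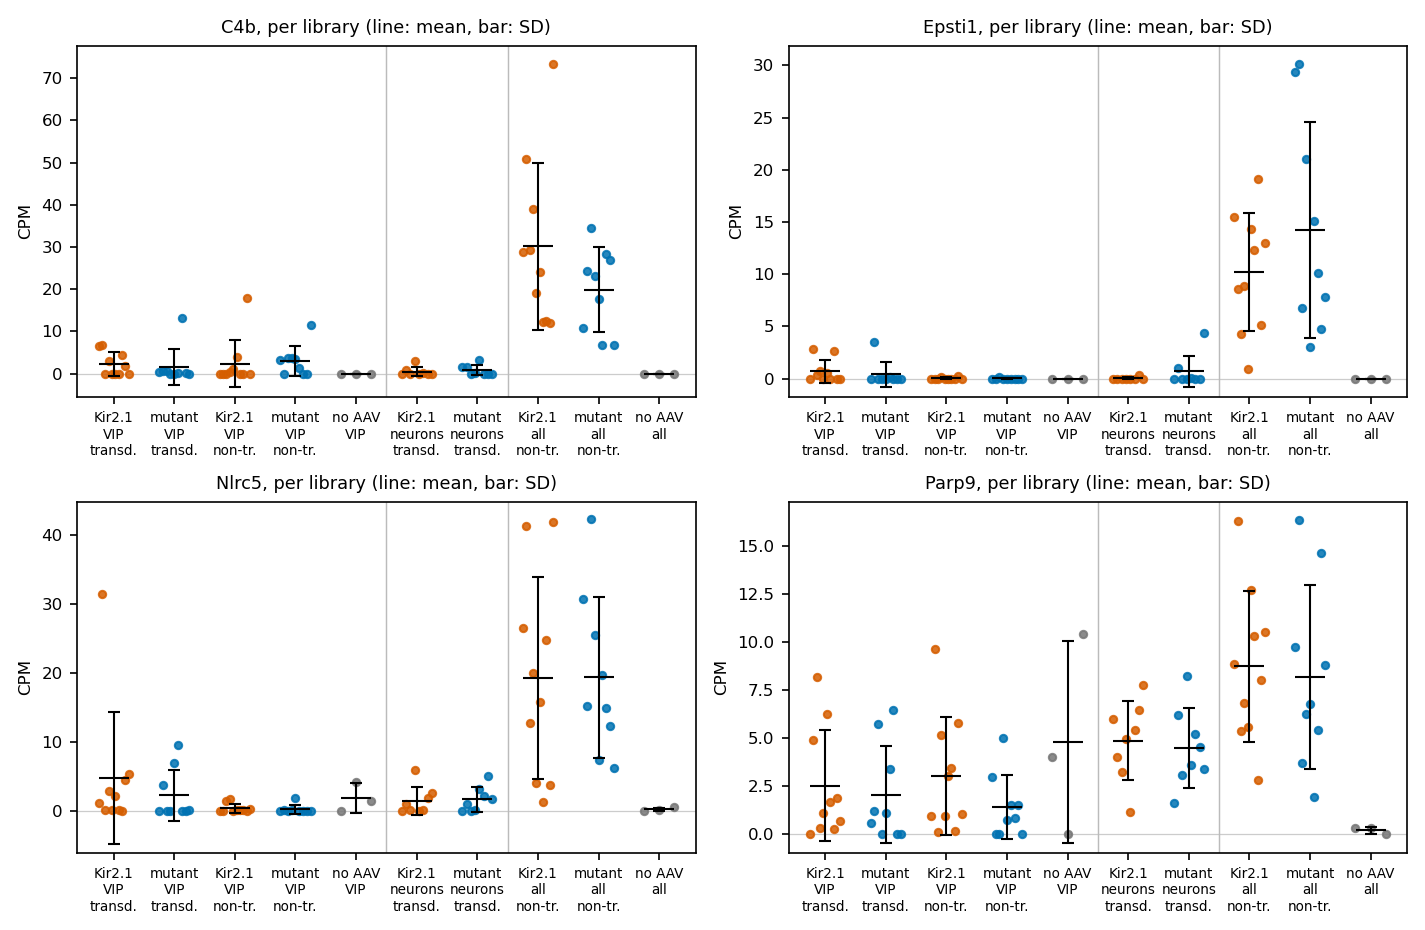
CPM per library (points), mean (line) and SD (bar) in the 10 groups for the 4 members that rose with AAV in all non-transduced nuclei. The libraries with AAV in the right-hand section lie above the 3 libraries without AAV, which are at 0 for C4b and Epsti1, at 0.520 CPM or less for Nlrc5 and at 0.322 CPM or less for Parp9.

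These 4 were 4 of 38 members tested, against 45 of 21362 genes, or 0.211%, called in this comparison (0.197% higher and 0.014% lower). Members and gene lists were chosen with earlier results of these data known. Their shares and medians, here and below, are therefore descriptions and no test of a set. C3, Isg15 and Tlr9 did not pass the filter on low counts, and 8 of the 38 passed through libraries with AAV alone, since Bst2, C4b, Epsti1, Gbp2, Gbp3, Oas2, Psmb9 and Zbp1 were at 0 in all 3 libraries without AAV, so that their difference could point in 1 direction only. Of the 38 tested, 20 had an unadjusted p under 0.05, 35 had a positive difference and 3 a negative one. The median log2 difference was 1.80, also with the genes at 0 set to their bound, against 0.09 over all genes. A further member, Parp14, an ADP-ribosyltransferase, had separate groups without passing the test: 0.585 to 16.8 CPM with Kir2.1 and 0.521 to 12.2 CPM with the mutant, against 0, 0.161 and 0.347 CPM, and an adjusted p of 0.054. Groups were separate in this direction for 0.304% of all genes.

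By role, the other antigen presentation members were next in order. Psmb9 and Psmb8, catalytic subunits of the immunoproteasome, had differences of 8.20 ± 2.08 and 5.75 ± 1.53, with adjusted p of 0.112 and 0.147. Psmb9 averaged 5.54 ± 6.87 CPM with Kir2.1 and 5.76 ± 3.33 CPM with the mutant, against 0 counts without AAV. Against a floor of 3 counts over the group without AAV, its pooled counts gave 34.1-fold, so its fitted difference is no measure of size. Summed over Nlrc5, Psmb8 and Psmb9, the level was 4.39 to 85 CPM with Kir2.1 and 8.31 to 57.2 CPM with the mutant, against 0.161 to 0.520 CPM without AAV, and these ranges did not overlap. Psmb9 overlaps Tap1, the peptide transporter gene, on the other strand, and without strand information their shared reads cannot be assigned.

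The MHC class I genes that Nlrc5 is known to act on were looked up after these values had been seen. B2m, the class I light chain, ran from 127 to 683 CPM with Kir2.1 and from 111 to 408 CPM with the mutant, against 15.6, 26.9 and 41.8 CPM, a log2 difference of 3.06 ± 0.47 (adjusted p = 9.07e-04). H2-K1, a class I heavy chain, ran from 64.7 to 351 CPM and from 63.9 to 331 CPM, against 0, 6.96 and 7.63 CPM, a difference of 4.86 ± 0.70 (adjusted p = 3.98e-04). Neither gene's groups overlapped.

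No transcription factor or sensor passed the test. Stat2 averaged 40.2 ± 15.3 CPM with Kir2.1 and 36.7 ± 4.80 CPM with the mutant, against 20.8 ± 7.66 CPM without AAV (SD, n = 10, 9 and 3), and its difference of 0.89 ± 0.31 did not pass (adjusted p = 0.335). Irf7, the amplifier of interferon production, had at most 0.155 CPM in a library without AAV and up to 24.7 CPM with Kir2.1 and 6.41 CPM with the mutant, with groups that overlapped (adjusted p = 0.374). Irf9, Irf8, Irf1 and Irf3 had differences of 1.09, 1.83, 0.85 and 0.47 with adjusted p of 0.455 to 0.723. For Ddx58, Ifih1, Myd88, Tlr3 and Zbp1 the adjusted p ran from 0.464 to 0.999. Their sum with Tlr9 overlapped between groups, at 9.36 to 54.2 CPM with Kir2.1 and 0.705 to 16.7 CPM with the mutant, against 1.29 to 7.97 CPM.

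Among antiviral effectors, only Epsti1 passed out of the 15 tested. Usp18, which strips Isg15 from proteins, averaged 9.37 and 8.40 CPM with Kir2.1 and the mutant, against 0.429 CPM (4.30 ± 1.72, adjusted p = 0.384), and Xaf1, an interferon-induced promoter of apoptosis, averaged 20.3 and 20.5 CPM, against 8.74 CPM (1.22 ± 0.49, adjusted p = 0.386). The classical targets Ifit1, Ifit2 and Ifit3 had differences of 0.63, -0.15 and -0.37, with adjusted p of 0.942, 0.985 and 0.96. Of the guanylate-binding GTPases, Gbp2 and Gbp3 were at 0 without AAV and averaged 1.88 and 3.16 CPM with Kir2.1 and 3.34 and 1.88 CPM with the mutant, short of the test (adjusted p = 0.465 and 0.308).

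**Figure D4:**
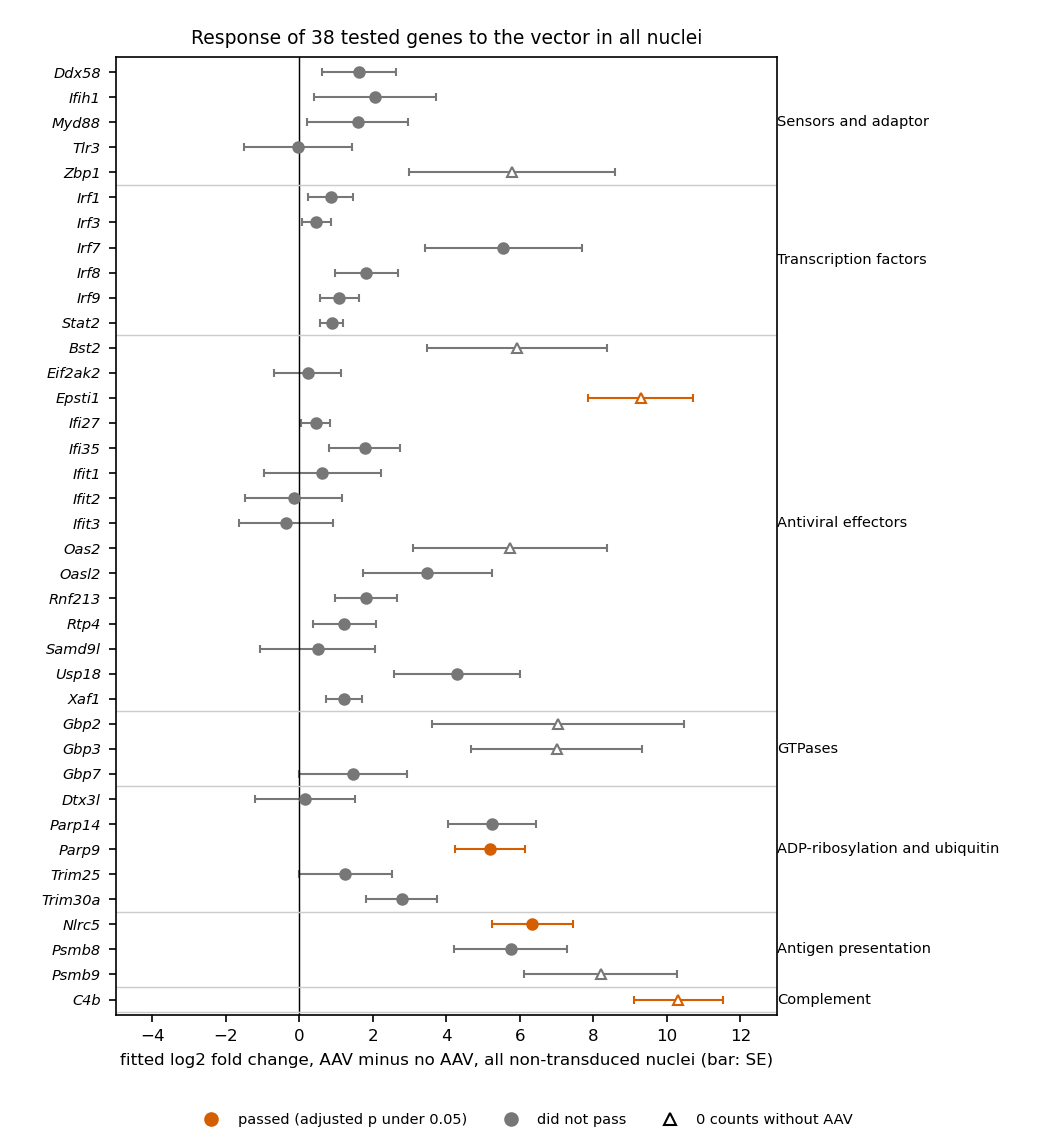
Fitted log2 difference (points) with SE (bars) of the 38 tested members, injected minus no AAV, in all non-transduced nuclei, ordered by role. The 4 members that passed are marked, and 35 of 38 points lie right of 0, among them 8 genes at 0 without AAV for which no other direction was possible.

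Genes of the pathway outside the 41 were read from lists. Of 45 other interferon-stimulated genes tested, 2 rose and 0 fell, but 19 of the 49 listed were at 0 in every library without AAV, both called genes among them, and could differ in 1 direction only. Tap1 was at least 104-fold higher (2111 counts against 0, adjusted p = 0.00808), and Sp100, a nuclear body protein gene, was also at 0 without AAV and averaged 8.30 CPM with Kir2.1 and 10.5 CPM with the mutant (adjusted p = 0.0452). None of 14 receptor and JAK-STAT genes passed (median 0.23). None of 25 sensor adaptor and kinase genes (median 0.65) and none of 17 other complement genes (median 1.24) passed. At an unadjusted p under 0.05 these 3 lists held 3, 7 and 4 genes (edgeR, the only tool run on them).

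Markers of other cell types were read in the same comparison, and 1 of those below passed. Of 8 tested lymphocyte and plasma cell markers, 1 rose, Jchain, the joining chain of secreted antibody (2.04 to 67.7 CPM with Kir2.1 and 0.853 to 71.0 CPM with the mutant, against 0 counts, adjusted p = 0.0182). The 13 listed markers summed to 4.57 to 140 CPM with Kir2.1 and 6.99 to 111 CPM with the mutant, against 0.173 to 2.01 CPM without AAV, where 10 of 13 were at 0, among them Cd3e, Cd4 and Cd8a. Cd8a was also at 0 in every library with the mutant. Sums of monocyte and macrophage markers were 36.6 to 189 and 22.3 to 89.1 CPM, against 3.29 to 36.2 CPM, with 0 of 7 tested called. Microglia markers summed to 594 to 1476 and 350 to 1192 CPM, against 156 to 1141 CPM, with 0 of 15 called, and vascular markers to 11.7 to 83.4 and 7.81 to 40.2 CPM, against 4.5 to 17.3 CPM, with 0 of 9 called. The part of these cells in the differences of C4b, Epsti1, Nlrc5 and Parp9 was not tested. The same 4 members were called with sex as a covariate, in males alone, and with either vector alone, and dropping library 2 without AAV left C4b and Epsti1 called (Nlrc5 at an adjusted p of 0.0636), while dropping library 3 left Parp9 at 0.0648.

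In VIP nuclei no member differed with AAV past the threshold. In non-transduced VIP nuclei with AAV against VIP nuclei without, 0 of 34 tested members passed in edgeR and 0 in DESeq2, 3 had an unadjusted p under 0.05, and 2 of 21207 genes (0.00943%) passed in all. The members with the smallest p were C4b (6.94 ± 2.99, adjusted p = 0.503), Psmb9 (5.36 ± 2.59, 0.504) and Parp14 (5.20 ± 2.51, 0.504), each at 0 in the 3 libraries without AAV. With such zeros the fitted difference is no measure of size. Against a floor of 3 counts over the group without AAV, their pooled counts gave 12.4-, 5.41- and 5.20-fold. C4b ran from 0 to 17.8 CPM with Kir2.1 and from 0 to 11.6 CPM with the mutant, overlapping the libraries without AAV. In transduced VIP nuclei 0 of 34 passed in either tool and 8 had an unadjusted p under 0.05, against 15 genes (0.0707%) called, 0.0424% higher and 0.0283% lower. The leading members were Ifit1 (7.78 ± 3.05, adjusted p = 0.543), Rnf213 (1.48 ± 0.63, 0.576) and Psmb9 (6.19 ± 2.73, 0.58). Ifit1 and Psmb9 were at 0 without AAV, and against the same floor their pooled counts gave 27.4- and 13.5-fold.

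Ifit1 ran from 0 to 16.1 CPM (median 2.03) in VIP nuclei transduced with Kir2.1 and from 0 to 10.4 CPM (median 4.28) in those transduced with the mutant, against 0 counts in each of 3 libraries without AAV. Rnf213 ran from 11.6 to 36.2 CPM (median 25.4) and from 6.12 to 33.3 CPM (median 23.0), against 0, 5.40 and 19.1 CPM. Both genes' groups overlapped, as did those of every member tested in either VIP comparison, where 0.141% of all genes (non-transduced) and 0.127% (transduced) had every library with AAV above every one without. The median member difference was 1.11 in non-transduced VIP nuclei, or 0.79 with genes at 0 set to their bound, and 1.72 (1.68) in transduced VIP nuclei, against 0.12 and 0.09 over all genes. Both VIP comparisons share the same 3 libraries without AAV, where 10 of the 34 tested members were at 0. These were Bst2, C4b, Epsti1, Gbp2, Gbp3, Gbp7, Ifit1, Irf8, Parp14 and Psmb9. They passed the filter through libraries with AAV and could differ in 1 direction only, which raises both medians. Outside the members, B2m, looked up after its values in all nuclei had been seen, passed in transduced VIP nuclei, with 47.5 to 351 CPM with Kir2.1 and 65.7 to 222 CPM with the mutant, against 14.2, 19.8 and 27.2 CPM (2.81 ± 0.61, adjusted p = 0.0464).

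Whether injected and uninjected mice differed by unlike amounts in VIP and in all non-transduced nuclei was tested as a difference of differences. None of 40 members passed in the main edgeR fit, 4 had an unadjusted p under 0.05, and 3 of 22855 genes (0.0131%) passed in all, 0.00438% higher and 0.00875% lower. Nlrc5 came nearest: in VIP nuclei it had 0 to 1.72 CPM with Kir2.1 and 0 to 1.92 CPM with the mutant, against 0, 1.48 and 4.28 CPM without AAV, and the difference between populations was -8.80 ± 1.79 (adjusted p = 0.0572). Parp9 followed with -6.44 ± 1.70 (adjusted p = 0.434). DESeq2 called Epsti1, Nlrc5 and Parp9. With the replicate number as a block, whose pairing the labels do not state, edgeR called Nlrc5 alone. In 13 of the 40 members, C4b and Epsti1 among them, this difference had no usable estimate in edgeR. Each had a group at 0, except Trim30a, which had 1 count in VIP nuclei without AAV.

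Kir2.1 was then compared with the mutant within each population. In transduced neurons, the positively sorted nuclei that expressed the vector, Stat2 rose with Kir2.1. It ran from 36.2 to 123 CPM (median 51.1) in 8 libraries with Kir2.1, against 15.2 to 41.3 CPM (median 27.7) in 8 with the mutant. The groups overlapped at their edges, as did those of every other member tested there, while 0.339% of all genes had every library with Kir2.1 above every one with the mutant. The log2 difference was 1.11 ± 0.24, or 2.16-fold (edgeR adjusted p = 0.00468). Stat2 was 1 of 17 members tested, against 898 of 15949 genes (5.63%) called, 2.18% higher and 3.45% lower, and 1 gene of 17 is too few to set a share against. The call therefore concerns Stat2 alone and not the set. With the replicate number as a block, whose pairing the labels do not state, Stat2 did not pass (edgeR adjusted p = 0.0512).

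Irf3 and Rnf213 followed without passing. Irf3 averaged 24.6 ± 9.39 CPM with Kir2.1 and 13.5 ± 7.07 CPM with the mutant (0.89 ± 0.33, adjusted p = 0.121), and Rnf213 averaged 34.6 ± 13.2 CPM with Kir2.1 and 22 ± 6.88 CPM with the mutant (0.67 ± 0.26, adjusted p = 0.144). Irf9, which binds Stat2 in that complex, did not pass either (0.23 ± 0.41, adjusted p = 0.83). The median over the 17 members was 0.40, against 0.04 over all genes. Marker levels moved in the same libraries: 3 of 8 astrocyte markers were lower with Kir2.1 (Slc1a2, Slc4a4 and Aldh1l1), with list sums of 308 to 421 CPM, against 510 to 634 CPM with the mutant, and 3 of 6 pan-GABAergic markers were lower, with sums of 50.1 to 153 CPM against 136 to 301 CPM. Their part in the Stat2 difference was not tested.

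In transduced VIP nuclei the myeloid transcription factor gene Irf8 passed at the edge of the threshold. Kir2.1 libraries held 0, 74, 1, 0, 0, 0, 0, 51, 4 and 45 counts, against 0 counts in each of 9 libraries with the mutant. The groups overlapped at 0. With 175 counts against 0 it was at least 39.6-fold higher against a floor of 3 counts, with an adjusted p of 0.0481, beside 294 of 21207 genes (1.39%) called, 0.354% higher and 1.03% lower. The call was not stable, since it lay so near the threshold. DESeq2 gave an adjusted p of 0.115. Leaving out a library lost the call in 15 of 19 cases (edgeR adjusted p 0.0349 to 0.0758 over the 19). These were each library with the mutant, all at 0 counts, and libraries 2, 3, 7, 8, 9 and 10 with Kir2.1. Most Irf8 counts came from libraries 2, 8 and 10 with Kir2.1. Summed markers of microglia, a cell type known to express Irf8, were 151 to 321 CPM with Kir2.1 and 171 to 243 CPM with the mutant. Other markers did move in this comparison: Vip, Crh, Cck, Dlx1, Dlx6os1 and the astrocyte marker Slc4a4 were lower with Kir2.1 and Camk2a was higher, and excitatory markers summed to 840 to 1378 CPM with Kir2.1, against 511 to 646 CPM with the mutant. Their part in the Irf8 difference was not tested. Parp14 (-4.10 ± 1.49, adjusted p = 0.183) and Oasl2 (2.53 ± 1.36, 0.509) were next.

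**Figure D5:**
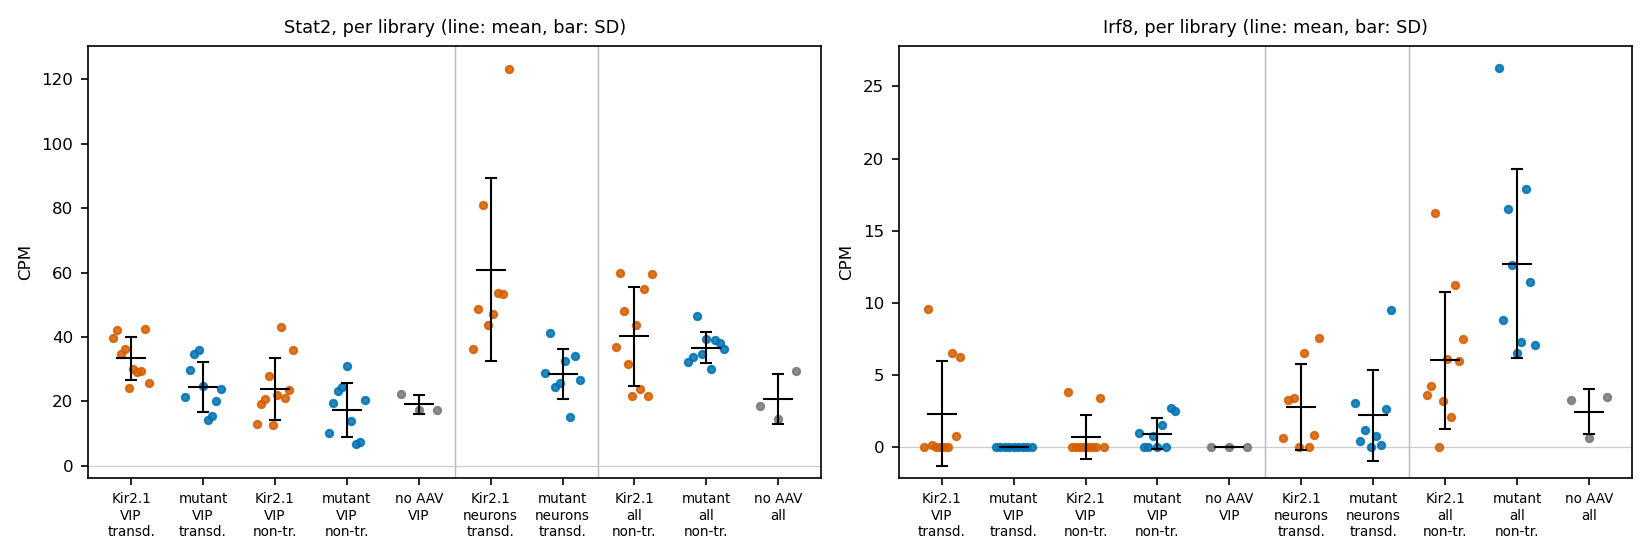
CPM per library (points), mean (line) and SD (bar) of Stat2 and Irf8 in the 10 groups. In transduced neurons 7 of 8 Stat2 values with Kir2.1 lie above 41.3 CPM, the highest with the mutant, and in transduced VIP nuclei 3 libraries with Kir2.1 carry most Irf8 counts while the 9 with the mutant are at 0.

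In non-transduced nuclei the vectors did not separate the members. Among all non-transduced nuclei 0 of 38 passed in edgeR, with 4 at an unadjusted p under 0.05, and 0% of genes were called. Ifi27 averaged 28.2 ± 10.5 CPM with Kir2.1 and 16 ± 5.57 CPM with the mutant (0.82 ± 0.28, adjusted p = 0.587), and Oas2, an oligoadenylate synthetase, averaged 0.263 and 3.78 CPM (-3.82 ± 1.38, adjusted p = 0.648). Ifi35, an interferon-induced leucine zipper protein gene, came next (1.37 ± 0.62, adjusted p = 0.803). The 4 genes that rose with AAV had vector differences of 0.59 ± 0.36 (C4b), -0.48 ± 0.47 (Epsti1), -0.02 ± 0.47 (Nlrc5) and 0.10 ± 0.45 (Parp9), none of which passed. In non-transduced VIP nuclei 0 of 34 passed (2 at an unadjusted p under 0.05), again with 0% of genes called. Tlr3, the endosomal sensor of double-stranded RNA, led with 0 to 2.98 CPM with Kir2.1 and 0 to 0.169 CPM with the mutant (4.53 ± 1.5, adjusted p = 0.285), ahead of Myd88 (2.58 ± 1.2, 0.532) and Gbp3 (3.08 ± 1.56, 0.585). DESeq2 called 0 members in both.

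Transduced VIP nuclei were set against non-transduced VIP nuclei of the same vector. With Kir2.1, 0 of 34 members passed in edgeR, with 3 at an unadjusted p under 0.05, against 163 genes (0.769%) called, 0.17% higher and 0.599% lower. Nlrc5 ran from 0 to 31.5 CPM (median 1.67) in transduced nuclei, against 0 to 1.72 CPM (median 0.142) in non-transduced nuclei (3.47 ± 1.29, adjusted p = 0.232). Epsti1 ran from 0 to 2.84 CPM against 0 to 0.262 CPM (3.61 ± 1.35, 0.233), and Eif2ak2, the RNA-activated kinase PKR that halts translation, averaged 4.72 CPM against 0.815 CPM (2.54 ± 1.07, 0.344). All 3 overlapped between groups.

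With the mutant, 0 of 34 passed, with 4 at an unadjusted p under 0.05, against 2 genes (0.00943%) called. Irf8 led (-5.49 ± 1.72, adjusted p = 0.443), with 0 counts in transduced nuclei and 0 to 2.73 CPM in non-transduced nuclei, and Epsti1 and Nlrc5 followed with 3.36 ± 1.37 and 3.09 ± 1.35 (0.655 and 0.759). The median member difference was 0.51 with Kir2.1 and 0.78 with the mutant, against 0.01 and -0.01 over all genes. DESeq2 called 0 members in both comparisons. Outside the members, H2-K1 was 53.3 to 264 CPM in transduced nuclei, against 1.48 to 90.4 CPM in non-transduced nuclei with Kir2.1 (2.03 ± 0.47, adjusted p = 0.0186), and 18.5 to 157 CPM against 2.02 to 42.2 CPM with the mutant (2.15 ± 0.50, 0.422). The difference of the vector effect between transduced and non-transduced VIP nuclei was called for 0 of 34 members (Irf8 7.19 ± 2.16, adjusted p = 0.146) beside 0.401% of genes (0.123% higher and 0.278% lower), and that between transduced VIP nuclei and transduced neurons for 0 of 28 (Stat2 -0.61 ± 0.32, adjusted p = 0.77) beside 0.316% of genes, 0.202% higher and 0.114% lower.

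Sorted populations were compared next, with all libraries treated as independent, although libraries of different populations may share animals. Over the 3 conditions, 15 of 40 tested members were lower and 1 higher in non-transduced VIP nuclei than in all nuclei, against 16.7% of genes lower and 10.7% higher (27.4% in all). Of the 40, Ifih1, Samd9l, Epsti1 and Oas2 had 1, 2, 3 and 4 counts over the non-transduced VIP libraries with AAV. All were at 0 in VIP nuclei without AAV, so they passed the filter through all nuclei and could come out lower only. The lower genes included Xaf1 (-4.09 ± 0.70, adjusted p = 6.31e-06), Ifih1 (-6.44 ± 1.2), Trim30a, a ubiquitin ligase of the mouse (-3.97 ± 0.81), Irf8 (-4.56 ± 0.98), Samd9l, an antiviral brake on translation (-5.59 ± 1.22), Eif2ak2 (-3.40 ± 0.84), Ifi27 (-1.67 ± 0.42) and Nlrc5 (-2.82 ± 0.70), each with an adjusted p of 0.00162 or less. Nlrc5 went the other way without AAV, with a pooled 2.04 CPM (35 counts) in VIP nuclei against 0.217 CPM (4 counts) in all nuclei. Gbp7, Stat2 and Parp14 had -3.71 ± 1.15, -0.63 ± 0.20 and -3.17 ± 1.01 (adjusted p 0.0117 to 0.0139), and 4 further genes had -1.74 to -3.48 (adjusted p 0.0145 to 0.0346). Irf3 was the gene higher in VIP nuclei (0.79 ± 0.22, adjusted p = 0.00483), with group means of 30.2 to 58.5 CPM, against 19.7 to 27.6 CPM in all nuclei.

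Group means of Xaf1 were 0.579 to 1.55 CPM in non-transduced VIP nuclei, against 8.74 to 20.5 CPM in all nuclei. Group means of Ifih1 were at most 0.0221 CPM in the same VIP groups, non-transduced or without AAV, against 0.829 to 5.01 CPM in all nuclei. Both genes thus lay apart in their group means, and how many of all genes did so was not counted. In 8 members, C4b and Epsti1 among them, the zeros without AAV left the mean over conditions without a usable estimate, so the populations were also compared in injected mice alone, an alternative added after the data had been seen. There 26 of 40 members were lower and 0 higher, against 19.5% and 12% of genes (31.5% in all), and 14 of the 16 genes called over 3 conditions were called again, Irf3 not among them. Ifih1, Samd9l, Epsti1 and Oas2, near 0 in these VIP libraries, are among the 26 and could again come out lower only. Epsti1 was -7.99 ± 0.60 (adjusted p = 1.35e-15) and C4b -3.23 ± 0.61 (3.15e-05), with C4b means of 2.33 and 3.00 CPM in VIP nuclei, against 30.1 and 19.9 CPM in all nuclei. The median member difference was -2.10 there, against -0.05 over all genes. In the comparison over 3 conditions, 13 of 15 microglia markers and 4 of 8 monocyte and macrophage markers were lower in VIP nuclei as well, while the listed microglia marker Sall1 was higher (2.45, adjusted p = 3.27e-07), and their part in the member differences was not tested.

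Transduced neurons differed from all non-transduced nuclei of injected mice in 10 of 35 tested members, all 10 lower, against 8.17% of genes lower and 3.53% higher (11.7% called in all). C4b ran from 0 to 2.95 CPM (Kir2.1) and 0 to 3.15 CPM (mutant) in transduced neurons, against 12.1 to 73.3 and 6.77 to 34.4 CPM in all non-transduced nuclei, a difference of -5.22 ± 0.55 (adjusted p = 7.27e-10). Epsti1 reached at most 0.35 and 4.32 CPM, against at least 0.878 and 2.99 CPM (-5.85 ± 0.67, adjusted p = 4.94e-09). C4b did not overlap between the populations, and Epsti1 overlapped at its edge. How many of all genes were separate between these populations was not counted, so this describes C4b alone. Trim30a (-4.84 ± 0.60), Nlrc5 (-3.61 ± 0.55), Parp14 (-3.63 ± 0.64), Xaf1 (-1.26 ± 0.26) and Trim25, the ligase that activates RIG-I (-3.54 ± 0.78), followed with adjusted p from 3.45e-08 to 8.73e-04, and Irf8 (-1.79 ± 0.55), Ifi27 (-0.68 ± 0.23) and Psmb9 (-2.16 ± 0.74) passed with 0.0237, 0.0387 and 0.0488. Of 35 fits that left out a library, the call of Psmb9 was lost in 24 (adjusted p up to 0.11) and that of Ifi27 in 16.

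Stat2, Irf1, Ddx58, Eif2ak2 and Rnf213 had differences of 0.13 ± 0.16, 0.07 ± 0.27, 0.05 ± 0.46, -0.11 ± 0.45 and 0.15 ± 0.29 in the same comparison and did not pass (adjusted p 0.759 to 0.978). For these genes a difference between the populations was not detectable against the spread between libraries. The median over the 35 members was -0.81, against 0.02 over all genes. Microglia markers (14 of 15), oligodendrocyte markers (8 of 8) and 4 of 5 tested lymphocyte and plasma cell markers were lower in transduced neurons in the same fit. Microglia sums were 137 to 191 and 118 to 188 CPM in transduced neurons, against 594 to 1476 and 350 to 1192 CPM in all non-transduced nuclei, and their part in the member differences was not tested.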

How the data were processed

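Libraries of 79 sorted pools of nuclei were analysed from 1 table of raw read counts per gene, deposited by the authors and not normalised. The mm10 build is named, with the tools STAR 2.5.3a, HOMER 4.9.1 and cutadapt 1.18, per the submitters' processing notes. The strand setting and the counting options are not given in the sources used here. Per the labels' protocols, libraries were oligo-dT primed and amplified by PCR without molecular identifiers, so that intervals and floors cover counting error only. The deposited counts name genes by Ensembl ID, and 55154 of 55335 matched GENCODE vM21.

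Counts were tested with the quasi-likelihood test of edgeR 4.0.16 (limma 3.58.1, R 4.3.3) after filterByExpr (minimum count 10, minimum total 15) and TMM scaling, with p-values adjusted by the Benjamini-Hochberg method over all genes tested and a threshold of 0.05. Fits held the 41 VIP libraries, the 22 libraries of all nuclei, the 16 of transduced neurons, or combinations of these where populations were compared. Log2 differences are given with an SE derived from the fitted difference and the F statistic of the test. Where a group is at 0, this SE is no measure of precision. CPM values were scaled by TMM over 79 libraries. The scripts were tested on simulated data. Alternatives were DESeq2 1.42.0, its size factors, no filter, the replicate number as a block, sex as a covariate, males only, each vector alone, and leaving out libraries.

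The members and gene lists were chosen with earlier results of these data known. Members with an adjusted p under 0.05 are named (beyond 12, the 12 with the smallest p in full), with the 3 smallest p where fewer than 3 passed, and the 3 highest mean levels per population. The labels do not say that a replicate number marks an animal, so the main fits hold no block. In no pair of groups did every same-numbered pair of libraries correlate over 0.1, a rule that cannot exclude shared animals. The main fits treat all libraries as independent. Their p-values between populations, and between transduced and non-transduced VIP nuclei, do not allow for libraries that share an animal. Matches between same-numbered libraries are given below. Promoter sequences are from RefSeq GRCm38.p6.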

Additional observations from a re-analysis of the deposited data

Results flagged for a closer look

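Among 39 sets of values (the summed level and members named in the report, within groups of 8 to 10 libraries), 7 held a library far from the rest of its group by Dixon's test. That test marks about 5% of groups by chance where values are normally distributed. Low CPM values with zeros are skewed, so this rate need not hold here and the 7 are a list only. The summed level of the 41 genes was 468 CPM in library 10 of transduced neurons with Kir2.1, where the next was 275 CPM. This library is also 1 of the 2 that stood apart by rank correlation. C4b was 17.8 CPM in library 9 of non-transduced VIP nuclei with Kir2.1, the other library that stood apart, where the next was 3.85 CPM. C4b was also 11.6 CPM in library 9 of non-transduced VIP nuclei with the mutant (next 3.74 CPM). Psmb9 was 5.36 CPM in library 4 of non-transduced VIP nuclei with the mutant (next 2.43 CPM). Parp14 was 4.36 CPM in library 7 of non-transduced VIP nuclei with Kir2.1 (next 0.331 CPM) and 0.557 CPM in library 9 of transduced VIP nuclei with Kir2.1 (next 0.156 CPM). Oasl2 was 7.11 CPM in library 2 of VIP nuclei transduced with the mutant (next 2.18 CPM).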

How the results depend on the processing

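Of the results for members named by their p-values, recomputed under each alternative, 1531 kept their direction and side of the threshold, 67 lost and 15 gained a call, and 0 changed direction. Calls of other members enter the counts below. For AAV in all nuclei, 4 members were called, 9 with DESeq2 and 7 with no filter on low counts, and 2 to 5 when a library was left out. For Kir2.1 against the mutant in transduced VIP nuclei, DESeq2 called 0, no filter 2 and leaving out a library 0 to 1. For the difference of the AAV effect, DESeq2 called 3, no filter 1 and the mutant alone 1, each with Nlrc5, and leaving out a library 0 to 1. No filter called 1 member for the vector effect in transduced against non-transduced VIP nuclei. Leaving out a library gave 10 to 18 members between VIP and all nuclei and 8 to 13 between transduced neurons and all nuclei, and the comparison in injected mice alone, added after the data had been seen, gave 26, with Irf3 at 0.38 (adjusted p = 0.159). The cause of these shifts was not tested. With the replicate number as a block, whose pairing the labels do not state, 0 members were called in transduced VIP nuclei and 0 in transduced neurons (Stat2 adjusted p = 0.0512, with a log2 difference of 0.88 to 1.21 over the alternatives), and 1, Nlrc5, for the difference of the AAV effect. Same-numbered libraries of transduced and non-transduced VIP nuclei with Kir2.1 correlated at 0.012 to 0.155, 4 of 10 over 0.1, and 6 of 10 libraries correlated best with their own number (6 of 9 with the mutant), a hint of pairing within a vector that comes from the data and not the design. For non-transduced VIP against all nuclei the best match was the own number in 5 of 10 libraries with Kir2.1 and 5 of 9 with the mutant. Without AAV it was so in 2 of 3. For transduced neurons against all non-transduced nuclei it was so in 4 of 8 and 5 of 8, and against transduced VIP nuclei in 3 of 8 with either vector. Between vectors this was so for 0 of 7 in transduced neurons, 0 of 9 in all nuclei, and 1 of 9 (transduced) and 3 of 9 (non-transduced) in VIP nuclei. Sex labels of same-numbered transduced and non-transduced VIP libraries differed in 1 of 10 pairs with Kir2.1 and 0 of 9 with the mutant. Between vectors they differed in 4 of 9 pairs of transduced VIP libraries. Between transduced neurons and transduced VIP nuclei with Kir2.1 they differed in 3 of 8. Over all genes, AAV in all nuclei gave 42 higher and 3 lower, 353 and 20 with DESeq2, and 98 and 191 with no filter, where the median shifted to 0.344. AAV gave 68 higher and 1 lower with DESeq2 in non-transduced VIP nuclei and 71 and 4 in transduced VIP nuclei, and 13 and 201 and 16 and 197 with no filter. With 3 libraries without AAV and low counts, small differences of single members could not be detected.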
